A study of Mus musculus with 4 samples.

Results

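The genes described here are 45 genes of G2 phase and mitosis, taken by symbol from a fixed list out of the 52636 genes measured in sorted mouse mammary luminal cells, and all 45 were found in the table. Luminal cells line the lumen of the milk ducts. The cells of each genotype came from 1 pool of mammary glands, the thoracic and the abdominal ones of 3 female C57BL/6N mice aged 6 weeks. Luminal cells were isolated from it by flow cytometry after a step of enrichment for epithelium, and 2 libraries per pool were made on the 10x Chromium platform. The pool called WT came from *Erbb3* +/+;MMTV-Cre animals and the pool called mutant from *Erbb3* V943R/V943R;MMTV-Cre animals. Both genotypes carried the MMTV-Cre transgene, whose promoter drives the recombinase mainly in mammary epithelium, so the substitution was present where Cre had been active. V943R alters the surface with which the kinase domain of ERBB3, a receptor of the epidermal growth factor receptor family, activates a partner receptor. The question put to the data was how these genes were distributed over the luminal clusters and whether their levels differed between the pools.

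Genes of this kind are transcribed periodically. In G2, cyclin B binds the kinase CDK1, which is held inactive by WEE1 and PKMYT1 and released by the CDC25 phosphatases. Once active, it drives chromosome condensation, nuclear envelope breakdown and assembly of the spindle. Aurora kinases and kinetochore proteins then tie chromosomes to microtubules, and a checkpoint restrains the anaphase-promoting complex until every chromosome is attached. With its activator CDC20 and the ubiquitin-conjugating enzyme UBE2C, that complex then marks cyclin B and securin for destruction, and the cell divides. Transcription of many of these genes is repressed in resting cells and switched on late in the cycle through the MuvB core with B-MYB and FOXM1, which acts at cell cycle homology regions (CHR), and through the factor NF-Y at CCAAT boxes. In the pubertal mammary gland, division of luminal cells accompanies the growth of the ducts. The 45 members were put into 7 groups by role, which were the CDK1 axis (6 genes), the chromosomal passenger complex (3), the spindle checkpoint and anaphase-promoting complex (4), centromere and kinetochore (6), chromosome and chromatin structure (8), spindle (14) and cytokinesis (4).

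Promoters in RefSeq's GRCm38.p6 table, each running from 250 bases before to 50 bases after the transcription start, were found for 39 of the 45 members, in 43 windows. No window was matched for *Tpx2*, *Aurkb*, *Cdc25c*, *Cdca2*, *Smc4* and *Dlgap5*. Of the matched windows, 5 are printed 5′ to 3′ on the strand of the gene, because those genes carry most of the contrasts below: *Cdk1* and *Top2a*, which stayed comparatively high in cluster 5, and *Ccnb2*, *Cdc20* and *Ube2c*, which did not. Capitals mark TTTGAA and TTTAAA, the letters of the CHR element, and CCAAT, each searched on both strands, so that TTTGAA also appears as TTCAAA and CCAAT as ATTGG. The windows lie at chr10:69352863-69353162 on the minus strand for *Cdk1*, chr11:99024140-99024439 minus for *Top2a*, chr9:70421505-70421804 minus for *Ccnb2*, chr4:118437294-118437593 minus for *Cdc20* and chr2:164769679-164769978 plus for *Ube2c*.
Cdk1: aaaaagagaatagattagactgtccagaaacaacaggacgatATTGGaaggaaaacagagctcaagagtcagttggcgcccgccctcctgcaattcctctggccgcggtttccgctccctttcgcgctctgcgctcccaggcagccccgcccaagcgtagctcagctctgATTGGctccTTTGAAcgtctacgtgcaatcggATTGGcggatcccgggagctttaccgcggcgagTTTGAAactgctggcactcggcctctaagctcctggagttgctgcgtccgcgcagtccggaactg
Top2a: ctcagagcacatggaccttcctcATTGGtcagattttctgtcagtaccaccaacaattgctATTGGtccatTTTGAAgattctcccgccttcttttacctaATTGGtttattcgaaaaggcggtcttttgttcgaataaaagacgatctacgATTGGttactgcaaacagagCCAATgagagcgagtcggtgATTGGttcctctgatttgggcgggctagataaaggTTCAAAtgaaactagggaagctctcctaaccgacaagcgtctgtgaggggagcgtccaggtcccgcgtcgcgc
Ccnb2: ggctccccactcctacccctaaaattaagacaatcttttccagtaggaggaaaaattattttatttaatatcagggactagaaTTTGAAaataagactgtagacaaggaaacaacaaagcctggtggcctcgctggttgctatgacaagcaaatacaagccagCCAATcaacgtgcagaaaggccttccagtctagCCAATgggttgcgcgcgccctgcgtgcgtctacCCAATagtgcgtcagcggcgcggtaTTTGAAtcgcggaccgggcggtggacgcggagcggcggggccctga
Cdc20: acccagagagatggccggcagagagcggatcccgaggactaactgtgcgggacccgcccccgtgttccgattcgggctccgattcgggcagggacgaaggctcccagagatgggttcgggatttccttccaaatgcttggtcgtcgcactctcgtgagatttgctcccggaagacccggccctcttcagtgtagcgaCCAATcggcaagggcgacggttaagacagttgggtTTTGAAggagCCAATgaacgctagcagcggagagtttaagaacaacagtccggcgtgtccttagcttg
Ube2c: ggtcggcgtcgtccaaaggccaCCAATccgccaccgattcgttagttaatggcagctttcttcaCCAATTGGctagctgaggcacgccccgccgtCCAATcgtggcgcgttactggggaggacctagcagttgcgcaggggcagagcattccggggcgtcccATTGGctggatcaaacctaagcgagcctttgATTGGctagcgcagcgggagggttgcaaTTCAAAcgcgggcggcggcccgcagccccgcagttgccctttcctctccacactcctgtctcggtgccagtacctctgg

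TTTGAA was present in 69.8% of the 43 member windows, against 17.9% of all 32851 windows of that length. CCAAT was present in 79.1% of member windows against 37.4% of all, and 2 or more CCAAT in 60.5% against 11.7%. The windows of 42 S phase genes, of which 30 genes were matched, held CCAAT in 66.7% but TTTGAA in 18.2%, and those of 30 other G2 and mitosis genes held TTTGAA in 65.2%. TTTGAA started within 50 bases of the transcription start in 55.8% of member windows and 4.94% of all windows. The 41 TTTGAA matches in member windows began at a median of 18 bases before the start and the 93 CCAAT matches at a median of 73 bases before it. In *Cdk1* they began at -71 and -15 and in *Top2a* at -179 and -23, both with CCAAT repeated 3 and 6 times, respectively. *Cdc20* and *Ube2c* had 1 TTTGAA each, at -18 and -29, with 2 and 6 CCAAT, and in *Ube2c* the letters CCAATTGG are 2 overlapping matches on opposite strands. None of the 3 motifs was found in 3 member windows, those of *Nuf2*, *Tacc3* and *Nusap1*. These matches describe letters in a window, and the promoters of the members that were low and those that were high in cluster 5 both held them.

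The 4 libraries held 6849 to 9627 cells and 30019745 to 38009351 unique molecular identifiers (UMIs), the tags by which captured mRNA molecules are counted, with medians of 3154 to 4027 UMIs per cell. Within each genotype the libraries are named A and B, without pairing between genotypes. Levels are UMIs summed over cells per 1000000 UMIs of the same cells (CPM). UMIs are counted at the 3′ end, so a level is not scaled by the length of the mRNA. The 13 clusters and their classes are the authors' own: luminal progenitor (LP, clusters 1 and 2), luminal intermediate (LI, cluster 3), mature luminal (ML, clusters 4 to 11) and the rare clusters 12 and 13. Progenitor markers stood at 3288 and 2966 CPM in LP cells of WT and mutant and at 65.3 and 64.9 CPM in ML cells, mature markers at 589 and 494 CPM in LP and at 3943 and 3374 CPM in ML, and the summed basal, immune, endothelial and fibroblast markers each reached at most 38.0 CPM in any library of LP, LI or ML. Cluster 12 held fibroblast markers at 5632 and 11129 CPM and endothelial markers at 2183 and 3466 CPM in WT and mutant, but also luminal markers at 4875 and 959.6 CPM, and in cluster 13 immune markers stood at 14484 and 18303 CPM beside luminal markers at 4703 and 4345 CPM. Of 31923 barcodes, 511 (1.601%) occurred in more than 1 library. *Erbb3* itself stood at 60.9 and 63.3 CPM in the WT libraries and 29.8 and 30.8 CPM in the mutant libraries (log2 ratio -1.03, -1.11 to -0.96), so the libraries separated by their labels. The tags do not read the substitution, and until Cre removes it the knock-in allele carries a cDNA cassette with a foreign 3′ end, whose part in this difference was not tested. With 1 pool per genotype there was no biological replicate and no test between genotypes, and every 95% interval below covers counting error only.

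The summed level of the 45 members was concentrated in 3 clusters, cluster 2 of the progenitors and clusters 5 and 6 of the mature cells. In cluster 2 the sum stood at 10729.8 and 11516 CPM in the WT libraries and 10299 and 11072 CPM in the mutant libraries. Cluster 6 stood at 10753.5 and 10497 CPM in WT and 9528 and 10117 CPM in the mutant. Cluster 5 was intermediate, at 3334 and 3593 CPM in WT and 3307 and 3148 CPM in the mutant. In each of the other luminal clusters the sum lay between 604 CPM (cluster 10, WT A) and 1417 CPM (cluster 1, mutant B). No library of clusters 2 and 6 overlapped with one of cluster 5, and none of cluster 5 with one of the remaining luminal clusters. Relative to the rest of its class, cluster 2 was 8.98-fold above cluster 1 in WT and 7.76-fold in the mutant, cluster 5 was 5.16-fold and 4.14-fold above the ML clusters other than 5 and 6, and cluster 6 was 15.8-fold and 12.6-fold above them. The authors drew the clusters from the same expression values, so these ratios describe the clusters and test nothing. The 3 clusters took up 12.2% of cells in WT and 14.01% in the mutant, 16.4% and 18.2% of all UMIs, and 67.1% and 64.95% of the members' UMIs. The cells of cluster 13 were above the luminal clusters other than 2, 5 and 6, at 1999 CPM in WT and 1843 CPM in the mutant from 83 and 81 cells, and the cells of cluster 12 stood at 829 and 1003 CPM from 43 and 33 cells.

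**Figure D1:**
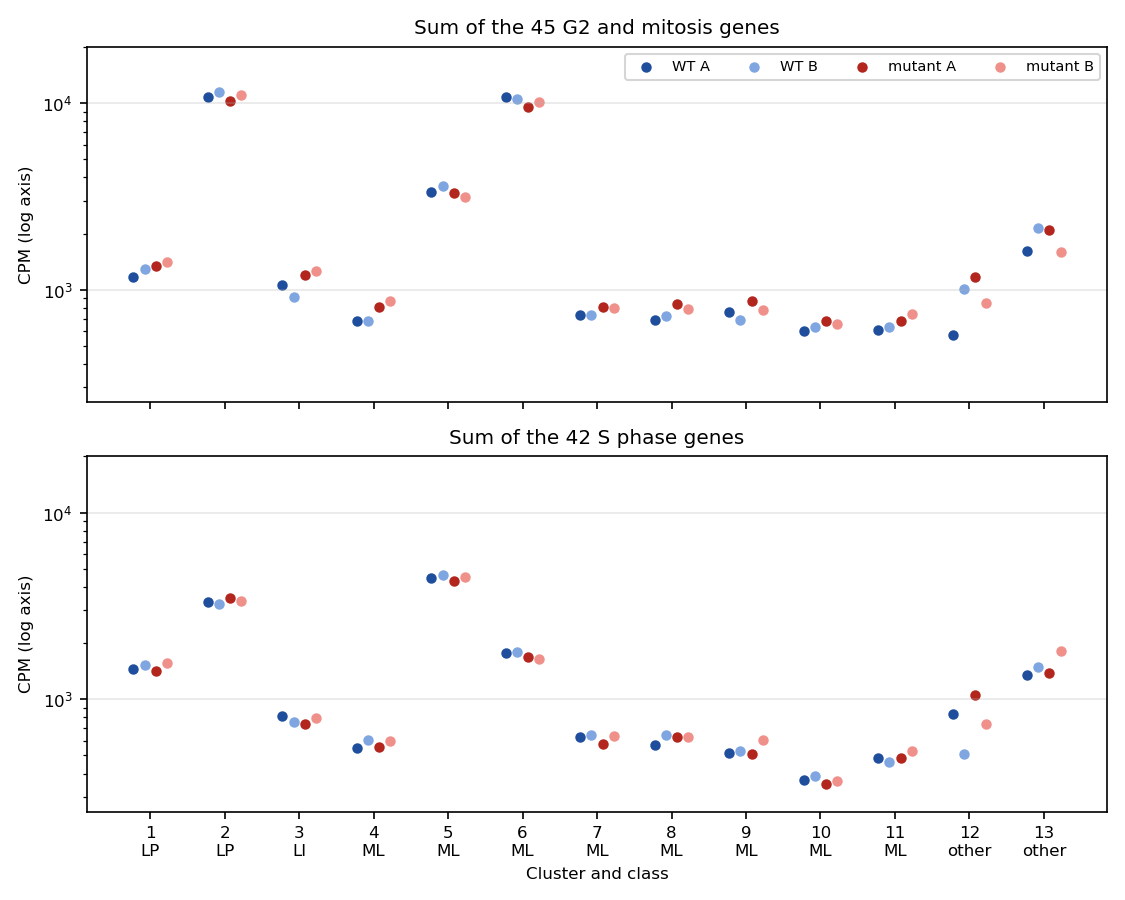
Summed level of the 45 G2 and mitosis members and of 42 S phase genes in each of the 13 clusters, in CPM on a log axis, with 1 point per library. Clusters 2 and 6 lie between 9528 and 11516 CPM for the members, while cluster 5 lies at 3148 to 3593 CPM for the members and has the highest S phase sum, 4309 to 4659 CPM.

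Genes of S phase, when DNA is replicated, were spread differently over the same 3 clusters. The S phase sum was highest in cluster 5, with 4476 and 4659 CPM in WT and 4309 and 4500.4 CPM in the mutant. It was lower in cluster 2, at 3237 to 3473 CPM over the 4 libraries, and lowest of the 3 in cluster 6, at 1649 to 1801 CPM, with no overlap between the clusters. The S phase sum was therefore 1.32 times the member sum in cluster 5 of WT and 1.37 times in the mutant, but 0.296 and 0.319 times in cluster 2 and 0.168 and 0.170 times in cluster 6. *Mcm6*, a subunit of the replicative helicase, stood at 286 to 331 CPM in cluster 5, 197 to 234 CPM in cluster 2 and 95.7 to 105 CPM in cluster 6. *Rfc2*, which loads the replication clamp, stood at 229.6 to 246, 183 to 195 and 135 to 164 CPM, and *Tipin*, a replication fork protein, at 235 to 273, 128 to 151 and 90.9 to 115 CPM in clusters 5, 2 and 6.

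Members differed in how far they were restricted to clusters 2, 5 and 6. The median member had 79.2% of its UMIs there, 21 members had over 80%, 17 had 50 to 80% and 7 had under 50%, while the 3 clusters held 17.3% of all UMIs. *Nusap1* and *Hmmr*, which bind spindle microtubules, were at the upper end with 89.9% and 89.2% and were singled out after their values were seen. The 7 below 50% were *Psrc1* (32.9%), *Hjurp* (34.2%), *Anp32e* (36.9%), *Tubb4b* (40.4%), *Tmpo* (47.9%), *Smc4* (48.0%) and *Cks1b* (49.6%). Several of these have roles outside mitosis: *Tubb4b* is a β-tubulin of the general cytoskeleton, *Tmpo* encodes lamina-associated polypeptides of the nuclear envelope, and *Anp32e* is a chaperone that removes the histone variant H2A.Z. Even so, each of the 7 stood 2.35-fold (*Psrc1*) to 4.72-fold (*Cks1b*) higher in the 3 clusters than in the others. Of the 45 members, 42 were higher in cluster 1 than in the ML clusters other than 5 and 6, and 3 were lower. This count set no limit on fold, UMIs or libraries, and *Tubb4b* was higher by a log2 ratio of only 0.099. The share over all genes was not taken, so the count is not read as a trait of the members. *Aurka*, the spindle pole kinase, stood at 8.10 CPM in cluster 1 and 24.6 CPM in those ML clusters, *Psrc1*, a spindle protein, at 17.5 and 37.7 CPM, and *Kif2c*, a microtubule depolymerase named after its values were seen, at 2.42 and 4.61 CPM.

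**Figure D2:**
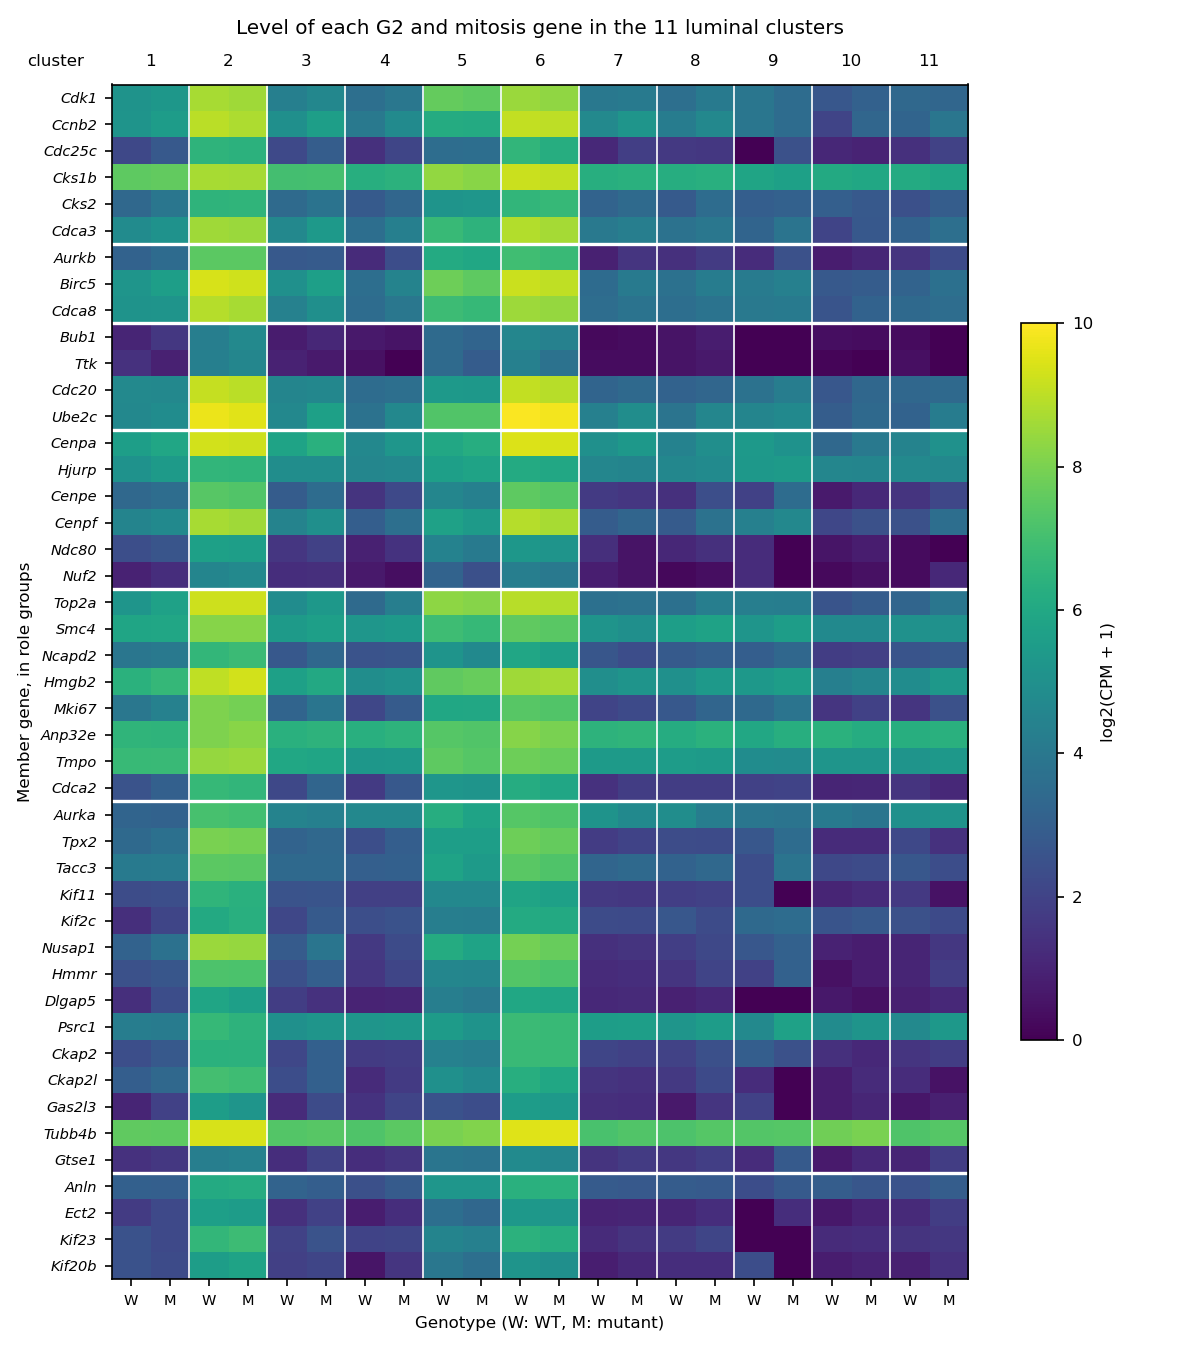
Level of each member, as log2(CPM + 1), in clusters 1 to 11 of the WT (W) and mutant (M) pools, with members grouped by role. Columns of clusters 2 and 6 are high for nearly every member and those of cluster 5 for some of them, and *Tubb4b*, *Cks1b* and *Anp32e* are also visible in the other clusters.

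In the CDK1 axis, *Cks1b*, a small subunit of the cyclin-dependent kinases, had the most UMIs. In cluster 6 it stood at 560 and 597 CPM in WT and 543 and 536 CPM in the mutant, and in cluster 2 at 409, 418, 400 and 396 CPM in the same order of libraries. *Ccnb2*, which encodes cyclin B2, stood at 563 and 512 CPM (WT) and 470 and 557 CPM (mutant) in cluster 6 and at 486, 516, 392 and 472 CPM in cluster 2. *Cdca3*, whose product serves the degradation of the CDK1 inhibitor WEE1, stood at 468, 461, 380 and 430 CPM in cluster 6, and the kinase *Cdk1* itself at 357, 355, 345 and 306 CPM. In cluster 2 the WT and mutant libraries of *Ccnb2* and *Cks1b* did not overlap, with the mutant lower, and in cluster 6 this held for *Cks1b*, *Cdca3* and *Cdk1*.

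The chromosomal passenger complex moves from centromeres to the midzone of the spindle and corrects faulty attachments. Its member *Birc5* (survivin) stood at 632 and 704 CPM in WT and 575 and 652 CPM in the mutant in cluster 2, and at 576, 597, 519 and 529 CPM in cluster 6. *Cdca8* (borealin) stood at 484, 473, 429 and 398 CPM in cluster 2 and 371, 373, 362 and 324 CPM in cluster 6. The kinase of the complex, *Aurkb*, stood at 189, 169, 167 and 185 CPM in cluster 2 and 115, 129, 121 and 99.0 CPM in cluster 6. *Cdca8* was lower in both mutant libraries than in both WT libraries in either cluster, *Birc5* in cluster 6, and *Aurkb* overlapped in both.

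Among genes of the anaphase-promoting complex, *Ube2c* was the most abundant of all members in cluster 6, at 971 and 1014 CPM in WT and 931 and 898 CPM in the mutant. *Cdc20* stood at 555 and 519 CPM in WT and 436 and 533 CPM in the mutant there. The checkpoint kinases were scarce: *Bub1* stood at 27.1, 19.98, 19.9 and 20.5 CPM and *Ttk* (MPS1) at 21.8, 16.9, 13.4 and 12.1 CPM in cluster 6. At their 3′ ends *Ube2c* overlaps *Tnnc2* and *Cdc20* overlaps *Elovl1*, both on the opposite strand, and whether counting used the strand is not given in the sources used here.

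At the centromere, *Cenpa*, the histone H3 variant that marks it, stood at 720 and 712 CPM in WT and 638 and 691 CPM in the mutant in cluster 6. *Cenpf*, a large kinetochore protein that accumulates in G2, stood at 494, 453, 377 and 454 CPM. *Hjurp*, which deposits CENPA after mitosis, was much flatter, at 73.0, 64.0, 67.8 and 59.4 CPM in cluster 6, 93.1, 94.3, 80.1 and 102 CPM in cluster 2 and 23.7, 23.9, 25.8 and 22.2 CPM in the ML clusters other than 5 and 6. The WT and mutant libraries of *Cenpa* in cluster 6 did not overlap, and those of *Cenpf* and *Hjurp* did.

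All 8 chromosome and chromatin genes were higher in cluster 2 than in cluster 6, *Anp32e* by the least (282 against 273 CPM). This count set no limit on fold, UMIs or libraries. Over the 45 members the median level ratio of cluster 2 over cluster 6 was 1.08, so the count is not read as a trait of this group. *Top2a*, the topoisomerase that untangles sister chromatids, stood at 605 and 603 CPM in WT and 531 and 651 CPM in the mutant in cluster 2, and at 494, 478, 462 and 447 CPM in cluster 6. *Hmgb2*, a chromatin protein that bends DNA, stood at 548 and 508 CPM in WT and 694 and 590 CPM in the mutant in cluster 2, and at 389, 365, 413 and 400 CPM in cluster 6. *Mki67*, a coat protein of mitotic chromosomes, stood at 263, 278, 249 and 231 CPM in cluster 2 and 183, 153, 135 and 173 CPM in cluster 6. *Hmgb2* was the member with both mutant libraries above both WT libraries in each of these 2 clusters.

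Spindle and cytokinesis genes spanned a wide range of levels. *Tubb4b* stood at 776 and 700 CPM in WT and 736 and 771 CPM in the mutant in cluster 6. *Aurka* stood at 181, 150, 145 and 158 CPM and *Psrc1* at 109.6, 111, 102 and 110.3 CPM there. Among cytokinesis genes, *Anln* (anillin, which scaffolds the contractile ring) stood at 82.8, 76.5, 83.8 and 81.4 CPM, *Kif23* (a motor of the central spindle) at 80.6, 89.7, 66.4 and 83.2 CPM and *Kif20b* at 33.5, 36.2, 21.0 and 39.6 CPM in cluster 6. The genotypes overlapped for all 6 of these genes in that cluster. *Tubb4b* overlaps *Fam166a*, and *Ckap2l* overlaps *Gm14024*, on the opposite strand at the 3′ end.

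Cluster 5 held a different selection of members from cluster 6. To compare the make-up, each member's UMIs were taken per 1000 UMIs of all members in the cluster. A member was called shifted where this share, over all 4 libraries summed, differed by 1.5-fold or more. Each of the 4 libraries also had to differ in the same direction, by any amount, with at least 50 UMIs in each cluster. Of 44 members that could be called, 13 took a larger share in cluster 5 and 9 a smaller one. By the same rule 98.6% of the 10054 genes that could be called were higher in cluster 5 and 0.169% lower. Both values largely follow from the denominator, as the member sum was 3.06-fold lower than in cluster 6 in WT and 3.05-fold in the mutant. Neither the higher nor the lower calls are therefore read against that background. The members' shares add up to 1000 in each cluster, so larger and smaller ones are tied to each other.

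The 9 members with a smaller share in cluster 5 included *Cdc20*, *Cenpa*, *Cenpf*, *Ccnb2* and *Ube2c*. *Cdc20* stood at 38.1 and 45.1 CPM in WT and 41.3 and 38.3 CPM in the mutant in cluster 5, against 436 to 555 CPM in cluster 6, a 12.5-fold difference over all libraries. *Cenpa* was 10.1-fold lower in cluster 5, at 62.2 to 79.8 CPM, *Cenpf* 9.35-fold lower, at 40.2 to 52.8 CPM, *Ccnb2* 7.501-fold lower, at 59.3 to 80.3 CPM, and *Ube2c* 6.12-fold lower, at 146 to 166 CPM. *Cenpe*, the kinetochore motor (8.10-fold), *Cdc25c*, a phosphatase that activates CDK1 (7.72-fold), *Hmmr* (6.67-fold) and *Ckap2* (5.61-fold), named after their values were seen, complete the 9. For each of these 9 the 4 libraries of cluster 5 lay below the 4 of cluster 6. This largely follows from the rule, as their shares and the member sum were both lower in cluster 5.

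The 13 members with a larger share in cluster 5 included 7 of the 8 chromosome and chromatin genes, with *Mki67* as the exception, and *Cdk1* and *Cks1b* of the CDK1 axis. *Hjurp*, *Aurkb*, *Ndc80* of the kinetochore and *Gtse1* of the spindle made up the rest, and *Ndc80* and *Gtse1* were named after their values were seen. *Top2a* stood at 315 and 318 CPM in WT and 291 and 296 CPM in the mutant in cluster 5, 1.54-fold below cluster 6, and its share of the member UMIs was 1.98 times that of cluster 6. *Cdk1* stood at 186, 212, 189 and 173 CPM and *Cks1b* at 320, 335, 294 and 307 CPM, 1.79-fold and 1.78-fold below cluster 6. *Tmpo* (1.22-fold below) and *Hjurp* (1.27-fold below) were nearest to their cluster 6 level, with shares of 2.49 and 2.40 times. *Aurkb*, at 58.3 to 75.6 CPM, was 1.796-fold below with a share of 1.70 times, whereas *Birc5* and *Cdca8* of the same complex had share ratios of 1.12 and 0.927 and were not called. Over all libraries the level of each of the 13 was still lower in cluster 5 than in cluster 6, and the libraries of the clusters overlapped for *Tmpo* alone.

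**Figure D3:**
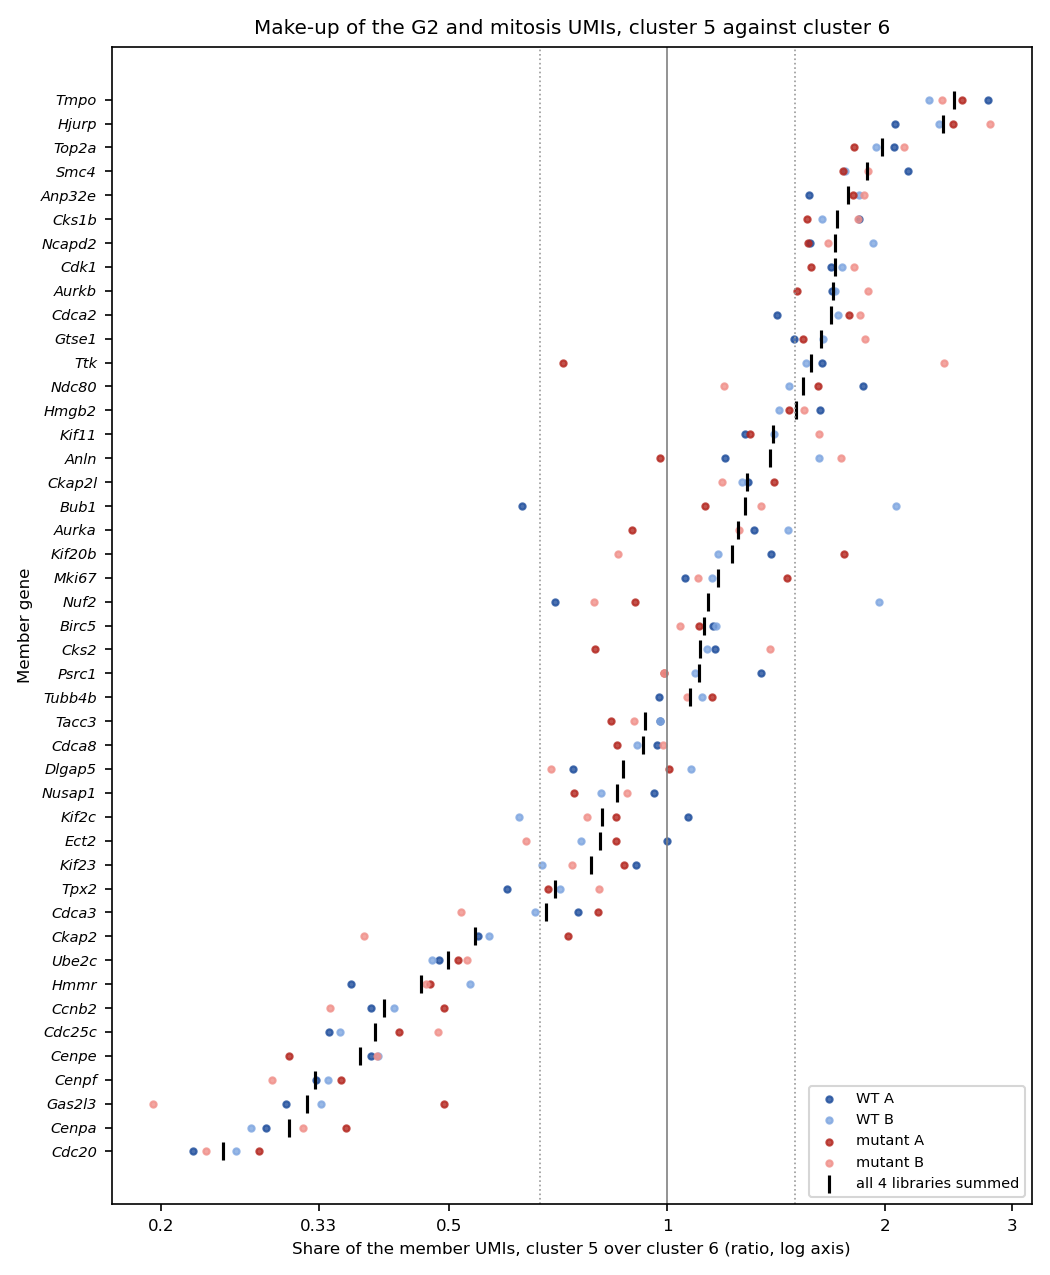
Share of each member among the member UMIs in cluster 5 relative to cluster 6, as a ratio on a log axis, with 1 point per library, the value over all 4 libraries, and dotted lines at 1.5-fold in either direction. *Cdc20* is lowest at 0.244 and *Tmpo* highest at 2.49.

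The 30 other G2 and mitosis genes, a related list, were compared by the same rule. Their UMIs were taken relative to the UMIs of all members, of which they are not a part. Of 29 that could be called, 13 were higher in cluster 5 on this scale and 3 lower. Among all 10054 genes that could be called, 98.6% were higher and 0.169% lower, largely because the member sum was lower in cluster 5. The 13 and the 3 are therefore not read as a rise or fall of these genes, and levels in CPM are given instead. *Ccnb1* (cyclin B1) was 8.32-fold lower in cluster 5 than in cluster 6, at 12.3 to 20.6 against 114 to 153 CPM, and *Plk1*, the Polo-like kinase, 6.98-fold lower, at 16.7 to 24.9 against 139.6 to 164 CPM. *Ccna2*, whose cyclin A2 already acts in S phase, stood at 44.8 to 61.2 CPM in cluster 5 and 120.1 to 151 CPM in cluster 6. *Bub3*, a checkpoint protein, stood at 179 to 196 against 268 to 309 CPM, *Spc24*, of the NDC80 complex, at 159 to 186 against 251 to 294 CPM, and *Pttg1* (securin) at 54.0 to 64.1 against 65.03 to 74.8 CPM. The regulators *Foxm1* and *Mybl2* (B-MYB) were scarce, at 8.61 to 13.5 and 10.6 to 12.8 CPM in cluster 5, and 22.7 to 27.9 and 4.76 to 6.10 CPM in cluster 6. *Foxm1* was lower and *Mybl2* higher in cluster 5 in every library.

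Clusters 2 and 6, the progenitor and mature clusters with the highest sums, were compared by the same rule. Of 45 members that could be called, 5 took a share at least 1.5-fold larger in cluster 2, over all libraries summed, and 0 a smaller one, against 14.5% and 10.3% of 8277 genes. The 5 are a smaller part of the members than was called over all genes, so they are not read as a trait of cluster 2. The 5 were *Ncapd2* (1.79 times), *Ckap2l* (1.67), *Tmpo* (1.55), *Smc4* (1.51) and *Kif11* (1.51). *Ncapd2* and *Smc4* encode subunits of the condensin complexes that compact mitotic chromosomes, *Kif11* encodes the motor that separates spindle poles, and *Ckap2l* a spindle protein. *Smc4* stood at 293, 288, 286 and 299 CPM in cluster 2 and 180, 197, 167 and 178 CPM in cluster 6, and *Ncapd2* at 82.2, 116, 101 and 119.5 CPM against 60.2, 59.9, 53.3 and 45.1 CPM. At the other end, *Cks1b* had 0.679 times its cluster 6 share in cluster 2, with 0.638 to 0.732 over the libraries. Without the 1.5-fold limit, 19 members took a larger share in cluster 2 and 14 a smaller one in all 4 libraries. The same count over all genes was not taken, so these numbers are not read as a trait of the members.

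Between genotypes, the member sum over all cells was slightly higher in the mutant. It stood at 1964 and 1987 CPM in the WT libraries and 2146 and 2191 CPM in the mutant libraries, which did not overlap, with a log2 ratio of 0.13 (0.12 to 0.15). For single members a rule of size was used, which asked for 1.5-fold or more in CPM, at least 50 UMIs in whichever genotype had more, and no overlap between the WT and the mutant libraries. In all cells 0 of 45 members were called higher and 0 lower, against 3.23% and 1.17% of 16450 genes. Both mutant libraries were above both WT libraries for 33 members and below for 1, *Aurka*, with a median log2 ratio of 0.13, while among all genes tested 31.8% were above and 22.5% below and the median was 0.02. *Hmgb2* stood at 88.8 and 81.3 CPM in WT and 111 and 105 CPM in the mutant (0.34, 0.29 to 0.39) and *Cks2*, the other small CDK subunit, at 18.6, 17.0, 22.9 and 22.5 CPM (0.35, 0.24 to 0.46). *Aurka* stood at 40.9 and 41.3 CPM in WT and 34.4 and 38.7 CPM in the mutant (-0.16, -0.24 to -0.08). With mutant cluster levels weighted at the WT shares of UMIs, the log2 ratio of the sum for all cells was 0.0056. Within clusters the ratio differed in sign, at -0.06 in clusters 2, 5 and 6 as 1 set and above 0 in each of the other luminal clusters, and the cause of the difference over all cells was not tested.

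Inside the 3 clusters with the highest sums the difference had the other sign or was small. In cluster 6 both mutant libraries lay below both WT libraries, with a log2 ratio of -0.11 (-0.13 to -0.10), and in cluster 5 as well, also at -0.11 (-0.14 to -0.07). In cluster 2 the libraries overlapped, at -0.05 (-0.08 to -0.03). The ratio of cluster 5 was -0.049 without WT B and -0.070 without mutant B, and that of cluster 6 was -0.070 without mutant A and -0.059 without the 6% of cells with the most UMIs. Mature luminal markers were also lower in both mutant libraries, with log2 ratios of -0.22 in cluster 5 and -0.23 in cluster 6, and the markers of all luminal cells were higher, at 0.13 and 0.12. In cluster 6 basal markers stood at 6.78 CPM in WT and 13.5 CPM in the mutant and immune markers at 3.57 and 10.4 CPM. Progenitor markers were lower in the mutant there (68.8 and 56.9 CPM), as were fibroblast (5.88 and 2.73 CPM) and endothelial markers (2.14 and 1.28 CPM, libraries overlapping). In cluster 5 basal markers stood at 16.6 and 5.41 CPM and immune markers at 2.27 and 3.86 CPM, both with overlapping libraries, and fibroblast markers at 9.08 and 3.35 CPM. The part of these markers in the member values was not tested. In cluster 6 1 member of 45 was called, *Ttk*, lower in the mutant (-0.59, -1.05 to -0.15), against 1.19% of 9373 genes lower and 2.11% higher, and the call was lost without WT A, without mutant B and with median-of-ratios scaling. The mutant libraries were both lower for 21 members there and both higher for *Hmgb2*, with a median log2 ratio of -0.13, while of all genes 23.4% were lower and 19.4% higher. In cluster 5, 0 of 39 members were called in either direction (1.95% of 8359 genes higher, 1.09% lower), and 16 had both mutant libraries below and 1, *Cenpa*, above, against 21.4% and 18.7% of genes. In cluster 2, 0 of 43 were called (1.79% of 6430 genes higher, 1.2% lower), with 13 below and 3 above, the latter *Hmgb2*, *Kif2c* and *Kif23*, against 19.1% of genes below and 19% above.

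Of the role groups, the passenger complex had the most negative ratio in clusters 5 and 6, with intervals that overlapped those of other groups. Its 3 genes summed to 378 and 430.0 CPM in WT and 369.8 and 329.5 CPM in the mutant in cluster 5 (-0.22, -0.32 to -0.12), and to 1063, 1099, 1002 and 952 CPM in cluster 6 (-0.15, -0.20 to -0.09). The CDK1 axis had -0.13 (-0.21 to -0.06) in cluster 5. In cluster 6, centromere and kinetochore genes had -0.14 (-0.18 to -0.09). The checkpoint and anaphase-promoting complex had -0.13 (-0.18 to -0.09) there. Chromosome and chromatin genes of cluster 2 summed to 2488 and 2531 CPM in WT and 2546 and 2691 CPM in the mutant (0.06, 0.01 to 0.12), the group that held *Hmgb2*. *Aurka* in cluster 5 had the most negative ratio of the members there, with 74.2 and 75.6 CPM in WT and 45.2 and 61.7 CPM in the mutant (-0.47, -0.73 to -0.22). *Birc5* in cluster 5 stood at 207 and 238 CPM in WT and 199 and 172 CPM in the mutant (-0.28, -0.42 to -0.14). Neither passed 1.5-fold, and in both cases the libraries of the 2 genotypes did not overlap.

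**Figure D4:**
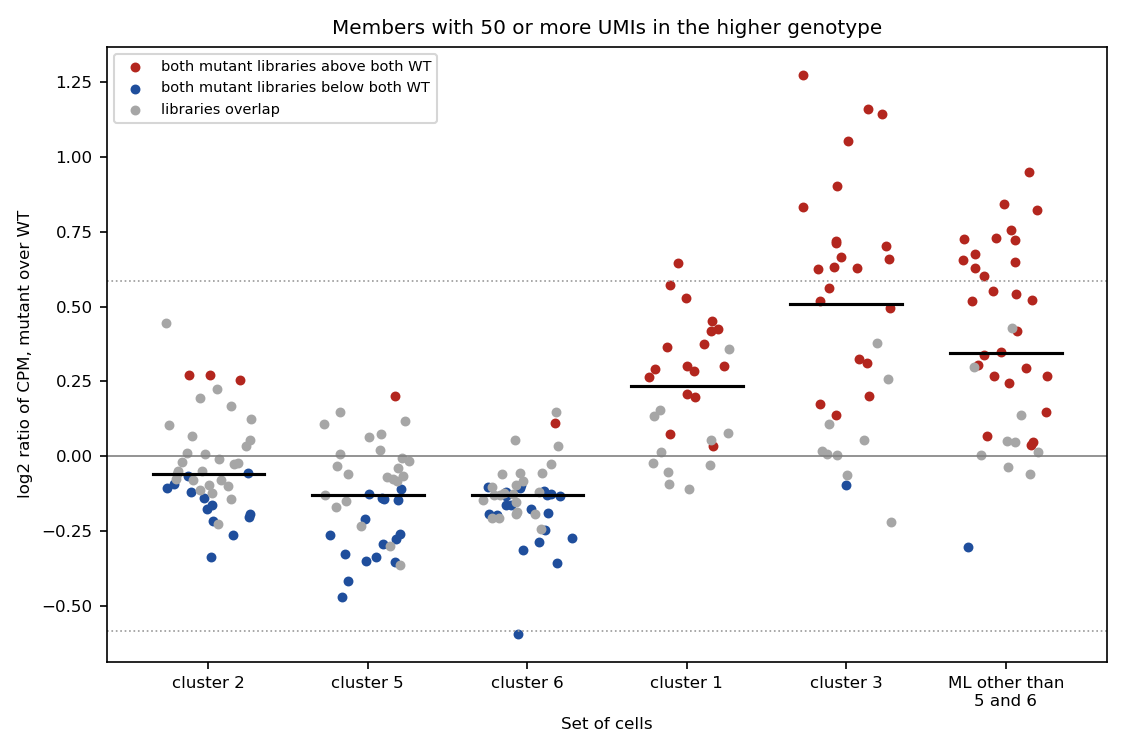
Log2 ratio of mutant over WT level of each member that could be called, in clusters 2, 5, 6, 1 and 3 and in the ML clusters other than 5 and 6, red where both mutant libraries lay above both WT libraries, blue where both lay below, grey where they overlapped, with the median as a black line and dotted lines at 1.5-fold. Medians are -0.06, -0.13 and -0.13 in clusters 2, 5 and 6 and 0.24, 0.51 and 0.34 in the other 3 sets of cells.

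Outside those 3 clusters, where levels were low, the member sum was higher in the mutant. The sum over all other clusters stood at 769.6 and 785 CPM in the WT libraries and 925 and 935 CPM in the mutant libraries, with no overlap and a log2 ratio of 0.26 (0.24 to 0.28). Of 42 members, 17 were called higher and 0 lower, against 3.63% and 1.22% of 15878 genes, and this set of clusters was chosen after values were seen. Both mutant libraries were above both WT libraries for 34 members and below for 1, again *Aurka*, while 32.1% of all genes were above and 22.4% below. The median log2 ratio was 0.40, against 0.03 over all genes tested. Without the 6% of cells with the most UMIs the sum had a ratio of 0.17, and 6 members were called, all among the 17. Of the 42 members, 19 had both mutant libraries below WT in cluster 6 and above WT here, and 0 the reverse, against 3.1% and 2.13% of the 9357 genes that could be called in both sets of cells.

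Other features of these cells also differed between the pools. Immune markers summed to 50.5 and 86.2 CPM in the WT libraries and 90.9 CPM in both mutant libraries (0.40, 0.34 to 0.46). Fibroblast markers were lower in the mutant, at 24.2 and 23.6 against 17.7 and 23.1 CPM (-0.22). Progenitor markers were higher, at 609 and 616 against 629 and 669 CPM (0.08). Without clusters 12 and 13, a setting added after the values were seen, the log2 ratio of the member sum was 0.26 and 17 members were called, the same 17. Mature luminal markers stood at 3377 and 3503 CPM in WT and 2740 and 2957 CPM in the mutant (-0.27, -0.28 to -0.26), and the share of cells in cluster 1 was 14.5% in WT and 19.4% in the mutant. Cluster 11 had the largest difference in its share of cells, with 15.4% of cells in WT and 4.85% in the mutant, and its member sum was among the lower ones, at 608 and 634 CPM in WT and 679 and 743 CPM in the mutant. With mutant cluster levels weighted at the WT shares of UMIs the log2 ratio of the member sum was 0.20, and the part of these markers in it was not tested.

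Of the 17 genes called there, 8 are given by library. *Ube2c* stood at 15.3 and 15.2 CPM in WT and 27.1 and 27.3 CPM in the mutant (0.83, 0.71 to 0.96). *Ccnb2* stood at 17.3 and 19.5 CPM in WT and 31.1 and 30.1 CPM in the mutant (0.73, 0.62 to 0.84), *Birc5* at 14.6, 16.2, 25.3 and 24.4 CPM (0.69, 0.57 to 0.81) and *Mki67* at 5.18, 5.10, 8.68 and 8.38 CPM (0.73, 0.52 to 0.94). The rule of size asked for no overlap between the genotypes, so the gap between WT and mutant libraries in these genes follows from the selection. *Top2a* stood at 15.6, 14.9, 22.7 and 23.5 CPM (0.60, 0.48 to 0.73), *Aurkb* at 2.49, 2.80, 3.46 and 4.76 CPM (0.64, 0.34 to 0.94), *Cenpf* at 10.0, 9.16, 14.6 and 14.99 CPM (0.63, 0.47 to 0.79) and *Cdca3* at 13.6, 14.2, 20.6 and 21.3 CPM (0.59, 0.46 to 0.73). The remaining 9, *Cdc25c*, *Cenpe*, *Cdca2*, *Nusap1*, *Hmmr*, *Ckap2l*, *Gas2l3*, *Gtse1* and *Ect2*, had log2 ratios of 0.64 to 0.97.

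The abundant members with much of their RNA outside clusters 2, 5 and 6 differed less. *Cks1b* stood at 90.9 and 91.5 CPM in WT and 98.8 and 98.7 CPM in the mutant there (0.11, 0.06 to 0.17), *Tubb4b* at 165, 168, 185 and 177 CPM (0.12, 0.08 to 0.16) and *Anp32e* at 81.0, 82.4, 83.3 and 87.9 CPM (0.07, 0.01 to 0.13). *Hjurp* overlapped, at 25.1, 26.0, 28.6 and 26.0 CPM (0.09, -0.02 to 0.20). *Aurka* had the opposite order, with 23.1 and 25.1 CPM in WT and 18.5 and 20.5 CPM in the mutant (-0.31, -0.43 to -0.19), while of the other spindle genes that were higher in ML than in cluster 1, *Psrc1* stood at 31.1, 32.9, 37.4 and 38.2 CPM (0.24, 0.15 to 0.33) and *Kif2c*, which overlapped, at 3.82, 4.57, 4.69 and 4.53 CPM (0.13, -0.13 to 0.39). Among the role groups the log2 ratio of the sum ran from 0.15 for the spindle genes and 0.20 for chromosome and chromatin to 0.57 for the passenger complex and 0.60 for the checkpoint and anaphase-promoting complex.

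The higher values were found in all 3 classes outside clusters 2, 5 and 6, with different weight. In the ML clusters other than 5 and 6 the sum stood at 664 and 679.7 CPM in WT and 783 and 772.5 CPM in the mutant (0.21, 0.19 to 0.23), with *Ccnb2* at 12.98, 14.5, 25.1 and 23.7 CPM (0.82, 0.68 to 0.97). In cluster 1 it stood at 1169.6 and 1297 CPM in WT and 1338 and 1417 CPM in the mutant (0.16, 0.11 to 0.20), with *Top2a* at 39.3, 33.6, 52.5 and 52.2 CPM (0.53, 0.29 to 0.77). Cluster 3 stood at 1063 and 919.7 CPM in WT and 1194 and 1261.5 CPM in the mutant (0.31, 0.26 to 0.35), and 14 of 32 members were called higher there and 0 lower, against 2.83% and 1.03% of 10525 genes. *Ube2c* in cluster 3 stood at 27.9 and 20.9 CPM in WT and 47.9 and 53.7 CPM in the mutant (1.05, 0.80 to 1.31). Other markers in cluster 3 also differed without overlap. Progenitor markers stood at 1189 and 1218 CPM in WT and 887 and 1010 CPM in the mutant (-0.35), mature markers at 2860 and 2970 against 2425 and 2678 CPM (-0.19), and basal markers at 21.5 and 22.6 against 33.4 and 32.8 CPM (0.59), and their part in the member values was not tested. Cells of cluster 3 had the most UMIs, with medians of 5620 in WT and 6849.5 in the mutant, and doublets were not called. Without the 6% of cells with the most UMIs 2 members were called in cluster 3, 1 of them among the 14, and the sum had a ratio of 0.11. Without WT A, WT B, mutant A or mutant B the count was 18, 9, 7 or 5. Of the 14, 6 had at least 50 UMIs in each genotype, and the others passed the minimum through the mutant alone.

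Cells were also counted by how many different members they held. Because mutant cells had more UMIs, 1000 UMIs were drawn at random from each cell, and the 45 WT cells and 252 mutant cells with fewer were not used. UMIs of 3 or more members were then found in 12.5% of WT cells (12.8% and 12.1% by library) and 15.4% of mutant cells (15.1% and 15.7%), a ratio of 1.24 (1.17 to 1.31). In cluster 2 the shares were 94.1% and 93.5% and in cluster 6 92.7% and 92.4%. Cluster 5 had fewer such cells, 48.9% in WT (47.9% and 50%) and 44.6% in the mutant (44.1% and 45.1%). In that cluster 36.3% and 33.4% of cells held 3 or more S phase genes but fewer than 3 members. Another 40.5% and 36.5% held 3 or more of each. In cluster 6, 71.5% and 71.2% of cells held 3 or more members but fewer than 3 S phase genes.

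In the clusters other than 2, 5 and 6, UMIs of 3 or more members were found in 3.45% of WT cells (3.45% and 3.46%) and 5.42% of mutant cells (5.17% and 5.66%), a ratio of 1.57 (1.40 to 1.75). Without thinning these shares were 32.0% and 39.5%. At 5 or more members the shares were 0.423% and 0.911%. The cells with 3 or more members, 564 in WT and 630 in the mutant, held 14.6% and 24.9% of the members' UMIs of those clusters. In the remaining cells there, with fewer than 3 members, the sum was 695 CPM in WT and 757 CPM in the mutant. Cells were chosen and summed by the same genes, so these values largely follow from the choice. They do not show in which cells the difference between the pools lay. By cluster, the mutant over WT ratio of the share with 3 or more members was 1.40 in cluster 1 (6.9985% against 9.77%). It was 1.29 in cluster 3, 1.83 in cluster 4, 1.58 in cluster 7, 1.79 in cluster 8 and 1.57 in cluster 9. In clusters 10 and 11 it was 0.847 and 1.36. In the ML clusters other than 5 and 6 together it was 1.55 (2.26% against 3.51%). Counting intervals held 1 in clusters 3 (0.966 to 1.72), 9 (0.845 to 2.91), 10 (0.528 to 1.36) and 11 (0.827 to 2.23), and lay above 1 in clusters 1, 4, 7 and 8. In cluster 1 a larger part of mutant than of WT cells had too few UMIs for thinning, so its ratio compares unequally filtered cells. Cells of 1 pool are not replicates of a genotype, so these ratios describe the pools. Free RNA gives UMIs in cells that do not make a transcript. In cluster 12 the share was 2.33% in WT and 12.1% in the mutant, from 1 of 43 and 4 of 33 cells with medians of 1985 and 1612 UMIs (cells outside clusters 2, 5 and 6 had 3283 and 3690), and in cluster 13 it was 16.9% and 11.7%. Both clusters also held luminal markers, and their cells may make the transcripts themselves, so the part of free RNA in the luminal shares was not measured.

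**Figure D5:**
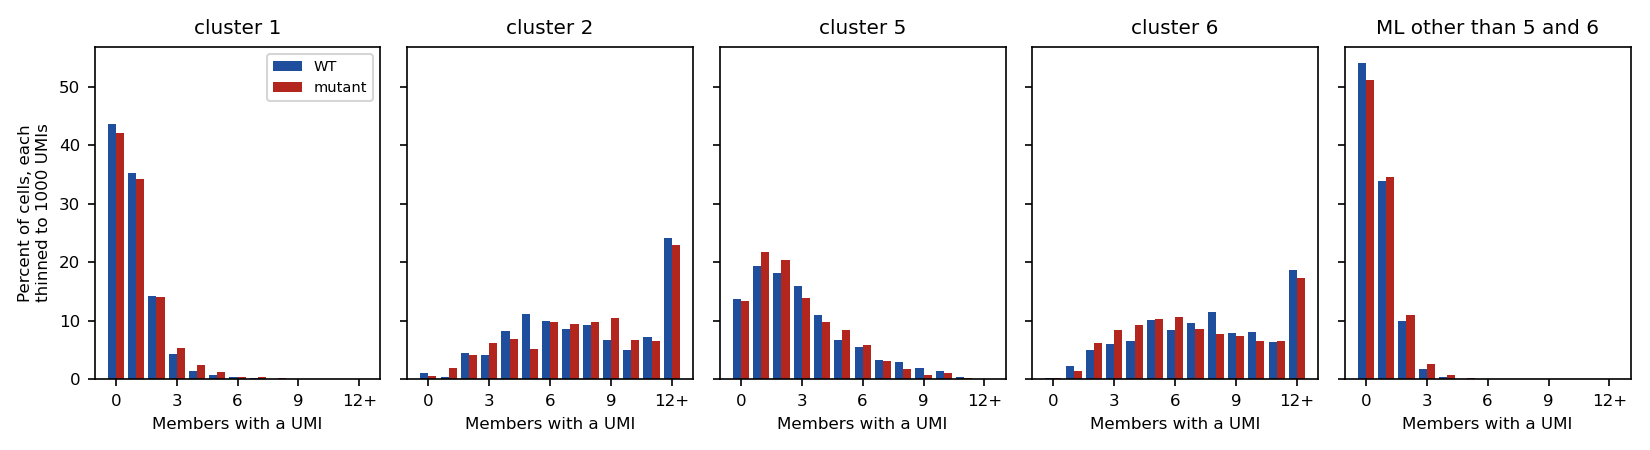
Percent of cells by the number of different members with a UMI after thinning to 1000 UMIs, in clusters 1, 2, 5 and 6 and in the ML clusters other than 5 and 6, WT against mutant. Cells of clusters 2 and 6 spread over many members in both genotypes, and 94.1% and 92.7% of WT cells there held 3 or more, against 6.9985% in cluster 1.

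The related lists gave a reference for these genotype values. In the clusters other than 2, 5 and 6, the 30 other G2 and mitosis genes had 9 called higher and 0 lower, with a median log2 ratio of 0.41, and the 42 S phase genes had 2 called higher and 0 lower, with a median of 0.15, against 3.63% of all genes called higher. With at least 50 UMIs in each genotype, 7 and 1 of them were called and all 17 members. Called genes of the former list included *Foxm1* (1.02, 0.945, 1.34 and 1.77 CPM, 0.67, 0.17 to 1.18), *Mybl2* (0.750, 0.756, 1.18 and 1.28 CPM, 0.71, 0.14 to 1.29, from 46 UMIs in WT and 63 in the mutant), *Ccnb1* (1.26, 1.29, 1.63 and 2.27 CPM, 0.62, 0.18 to 1.06) and *Plk1* (1.64, 1.70, 2.77 and 2.42 CPM, 0.63, 0.25 to 1.02). *Ccna2* (0.40), *Spc24* (0.49), *Bub3* (0.02) and *Pttg1* (-0.05) were not called. *Mcm6*, *Rfc2* and *Tipin* of the S phase list had log2 ratios of 0.01, -0.04 and 0.03 there. In cluster 6 the other G2 and mitosis genes had 17 with both mutant libraries below WT and 1 above, and the S phase genes 11 below and 4 above, of 29 and 37 that could be called, with medians of -0.14 and -0.06. Of all genes there 23.4% were below and 19.4% above. *Ccnb1* in cluster 6 stood at 146, 153, 114 and 128 CPM (-0.30, -0.45 to -0.15) and *Ccna2* at 151, 149.7, 120.1 and 130.5 CPM (-0.26, -0.41 to -0.12).

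The genes outside the list whose levels followed the member sum most closely over the 13 clusters were mostly known cell cycle genes. For each of 12030 genes with 200 UMIs or more, log2(CPM + 1) was correlated with that of the member sum over the 13 clusters. The clusters share libraries and each member is part of the sum, so the values are a description. In WT the 10 genes outside the list with the highest Pearson r were *Prc1* (0.991), *Dbf4* (0.985), *H2afx* (0.982), *Ccnb1* (0.977), *Ska1* (0.976), *Bub1b* (0.976), *Knl1* (0.975), *Foxm1* (0.972), *Kif22* (0.971) and *Cenpw* (0.970). In the mutant their r ranged from 0.710 (*Cenpw*) to 0.974 (*H2afx*). *Prc1* bundles microtubules of the central spindle, *Dbf4* activates the kinase CDC7 at replication origins, and *Ska1*, *Knl1* and *Bub1b* act at the kinetochore. Of the 100 genes with the highest r in WT, 29 were members. The 43 members that could be compared had a median r of 0.946 in WT and 0.920 in the mutant, and the median over all genes compared was 0.120 in WT.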

How the data were processed

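Sorted luminal cells of 1 pool of 3 mice per genotype were sequenced as 2 libraries each. Tools named in the submitters' processing notes are CASAVA 1.8, bcl2fastq 2.20 and GSNAP 2013-10-10 with build GRCm38, and the authors clustered the cells in Partek Flow. The deposited table is a signal in which each cell's UMIs had been multiplied by 1 factor, so that cells summed to between 3516 and 3726 (median 3563). Dividing by the smallest value above 0 in each cell gave whole numbers within 0.02 for 100.0% of 60853305 values, and these UMIs were summed over the cells of each library and cluster and are given per 1000000 UMIs of those cells. Such sums do not depend on the factor, but cells with many UMIs weigh more. Column names did not give the replicate number, so libraries were named A and B in order of their identifiers. Intervals are exact Poisson, exact conditional binomial for ratios and Clopper-Pearson for shares, at 95%, and cover counting error only. No test between genotypes was possible. The rule of size was checked on simulated counts with counting error only. These had no spread between libraries or pools, so the check does not cover such spread. Genes named were the 3 members with the most UMIs in each role group, members past a rule of size, *Mki67*, *Top2a*, *Cdk1*, *Ccnb2*, *Cdc20*, *Aurka*, *Aurkb*, *Cks1b* and *Cks2*, the 3 genes with the most UMIs in both related lists, and *Foxm1*, *Mybl2*, *Ccna2*, *Ccnb1* and *Plk1*. Members and lists were chosen with earlier results of these data known. Alternatives covered scaling, filters on cells, the fold and UMI minimum, thinning and leaving out each library. Doublets were not called. Python 3.11.15, numpy 2.4.6, pandas 2.3.3, scipy 1.17.1 and matplotlib 3.10.9 were used, with random seed 1.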

Additional observations from a re-analysis of the deposited data

Results flagged for a closer look

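The member sum was lower in both mutant libraries than in both WT libraries in cluster 5 (log2 ratio -0.11) and in cluster 6 (-0.11), and higher in both in the clusters other than 2, 5 and 6 (0.26). The opposite order in these sets of cells is what drew attention, and the difference between them was not tested.

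The same opposite order, with no overlap of libraries on either side, was seen for 19 single members, and for 0 members in the reverse sense, against 3.1% and 2.13% of the 9357 genes that could be called in both sets of cells. Of the 19, 9 also passed the rule of size outside clusters 2, 5 and 6. They were *Cdc25c* (-0.36 in cluster 6 and 0.81 outside), *Cdca3* (-0.20 and 0.59), *Birc5* (-0.16 and 0.69), *Ube2c* (-0.12 and 0.83), *Top2a* (-0.10 and 0.60), *Cdca2* (-0.27 and 0.87), *Nusap1* (-0.25 and 0.86), *Ckap2l* (-0.31 and 0.68) and *Gtse1* (-0.19 and 0.64). None of these differences was tested.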

How the results depend on the processing

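Of 206 alternatives to 28 results, beside leaving out a library, 150 left the value within its counting interval or a count within 1.5 times, 54 moved it and 2 turned the sign of a value whose interval did not hold 0. The ratio of LP, 0.0020 with an interval on both sides of 0, was also below 0 in 3 of these alternatives. Without the 6% of cells with the most UMIs, the log2 ratio of the member sum was 0.21 in all cells, 0.11 in LI, 0.25 in ML, -0.059 in cluster 6 and 0.17 outside clusters 2, 5 and 6. The members called were then 2 in cluster 3 and 6 outside clusters 2, 5 and 6, and cluster 2 over cluster 1, cluster 5 over other ML and cluster 6 over other ML were 9.84, 4.89 and 15.8. Without the 10% of cells with the fewest UMIs, LP was at -0.079 and cluster 2 over cluster 1 at 7.59. Median-of-ratios scaling gave 0.11 in all cells, -0.095 in cluster 6 and 0.23 outside, with 0 lower calls in cluster 6. Means of the deposited values, in which each cell weighs the same, gave 0.17 in all cells, -0.024 in LP, 0.22 in LI, 0.19 in ML, 0.00071 in cluster 2 (a turned sign), -0.079 in cluster 6 and 0.20 outside, and ratios of 10.7 for cluster 2 over cluster 1 and 15.1 for cluster 6 over other ML. The median over members was 0.50 in LI, 0.13 in ML, -0.14 in cluster 5, -0.13 in cluster 6 and 0.38 outside. Without the 5 members with the most UMIs, LI was at 0.37, cluster 5 at -0.15 and outside at 0.33, and the 3 ratios were 10.6, 6.88 and 20.1. Mutant levels at the WT shares of UMIs gave 0.0056 in all cells, -0.018 in ML (a turned sign) and 0.20 outside. The cause of these shifts was not tested.

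At the lower fold tried, 2 members were called higher in all cells, 1 lower in cluster 2, 6 lower in cluster 5, 2 lower in cluster 6 and 26 higher outside. At a fold of 2, 0 were called in cluster 6, 4 in cluster 3 and 0 outside, and with at least 100 UMIs 7 in cluster 3. With at least 50 UMIs in each genotype, added after the values were seen, 6 were called in cluster 3. The mutant over WT ratio of the share of cells was 1.17 in all cells for 2 or more and 1.17 for 5 or more members, 0.931 in cluster 6 for 5 or more, 0.817 in cluster 5 thinned to 500 UMIs, and outside 1.21 for 2 or more, 2.16 for 5 or more and 1.23 without thinning.

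Leaving out each library gave log2 ratios of 0.12 to 0.15 in all cells, -0.044 to 0.039 in LP, 0.21 to 0.42 in LI, 0.13 to 0.16 in ML, -0.11 to -0.0017 in cluster 2, -0.16 to -0.049 in cluster 5, -0.16 to -0.070 in cluster 6 and 0.24 to 0.27 outside. Calls ranged from 0 to 0 in all cells, 0 to 1 higher and 0 to 0 lower in cluster 2, 0 to 0 higher and 0 to 2 lower in cluster 5, 0 to 0 higher and 0 to 1 lower in cluster 6, 5 to 18 higher and 0 to 0 lower in cluster 3, and 14 to 18 higher and 0 to 0 lower outside. Cluster ratios ranged from 8.12 to 8.55, 4.44 to 4.88 and 13.6 to 14.9, and ratios of shares from 1.20 to 1.28 in all cells, 0.973 to 1.01 in cluster 2, 0.893 to 0.932 in cluster 5, 0.992 to 1.00 in cluster 6 and 1.496 to 1.64 outside. No paired analysis was possible because the columns carry no replicate number. Members with few UMIs outside clusters 2, 5 and 6 have wide counting intervals.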
